A study of Rattus norvegicus with 65 samples.

Results

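The hypothalamic transcriptome of rats treated with PYY3-36 plus liraglutide was compared with that of saline-treated rats. Members were all libraries labelled PYY_Lira or Saline, 18 of the 65 in the series: 10 animals received the combination and 8 received saline. The animals were male Wistar rats, 9 to 10 weeks old at the start, which became obese on 6 weeks of high-fat diet. Liraglutide was injected subcutaneously at 0.4 mg/kg/day and PYY3-36 was delivered by osmotic minipump at 0.1 mg/kg/day, while controls received saline by both routes. Both groups then chose freely between high- and low-fat diets, and hypothalami were collected after 4 weeks of treatment and 10 h of fasting. The study ran in 2 periods, labelled batch A and batch B. Batch A held 5 combination-treated and 3 saline-treated animals, and batch B held 5 of each. Each library was the dissected hypothalamus of 1 animal, with all nuclei together, and held between 20622249 and 35011146 counts on genes, median 26199815.

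Liraglutide is a long-acting agonist of the receptor for glucagon-like peptide-1 (GLP-1), a gut hormone released after meals. PYY3-36 is the truncated form of the gut hormone peptide YY and prefers the Y2 receptor, which sits presynaptically on neuropeptide Y neurons of the arcuate nucleus. In that nucleus, neurons making NPY and AgRP drive feeding, and neurons making the POMC-derived melanocortins and CART restrain it. Both hormones also act in the brainstem and on vagal nerve endings.

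Before genes were compared, the tissue label was checked against 12 hypothalamic neuropeptide and transcription factor genes, among them Oxt, Avp, Hcrt and Pmch. Their summed normalized counts (counts divided by the size factor of the library) ranged from 2022 to 220218 over the combination-treated animals. Over the saline-treated animals they ranged from 394 to 157463. A few libraries, 3 of 18, stood apart at the low end: saline animal 4 with 394, combination-treated animal 8 with 2022 and saline animal 3 with 4485, against at least 20725 in each of the other 15. In saline animal 4, Hcrt was at 1.19, Avp at 30.9 and Oxt at 38.0 normalized counts, while its cortical markers summed to 31682 against at most 6546 in any other animal of both groups. Saline animals 5 and 7 stood apart in thalamic markers, with sums of 7925 and 15452 against at most 3550 in the other 16 animals. Their habenula marker sums were 11331 and 20309, the former close to 10901 in combination-treated animal 6. Without the gene Gpr151 the habenula sums were 10138 and 17878, so that saline animal 5 lay below combination-treated animal 6. Saline animal 8 had the highest striatal sum (80502) and saline animal 1 the highest anterior pituitary sum (13570). Some results are therefore also given without saline animals 3, 4, 5 and 7 or combination-treated animal 8. Saline animals 1 and 8 were left out 1 at a time only, not together. In bulk tissue, fewer cells of a type and less RNA per cell cannot be told apart.

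**Figure D1:**
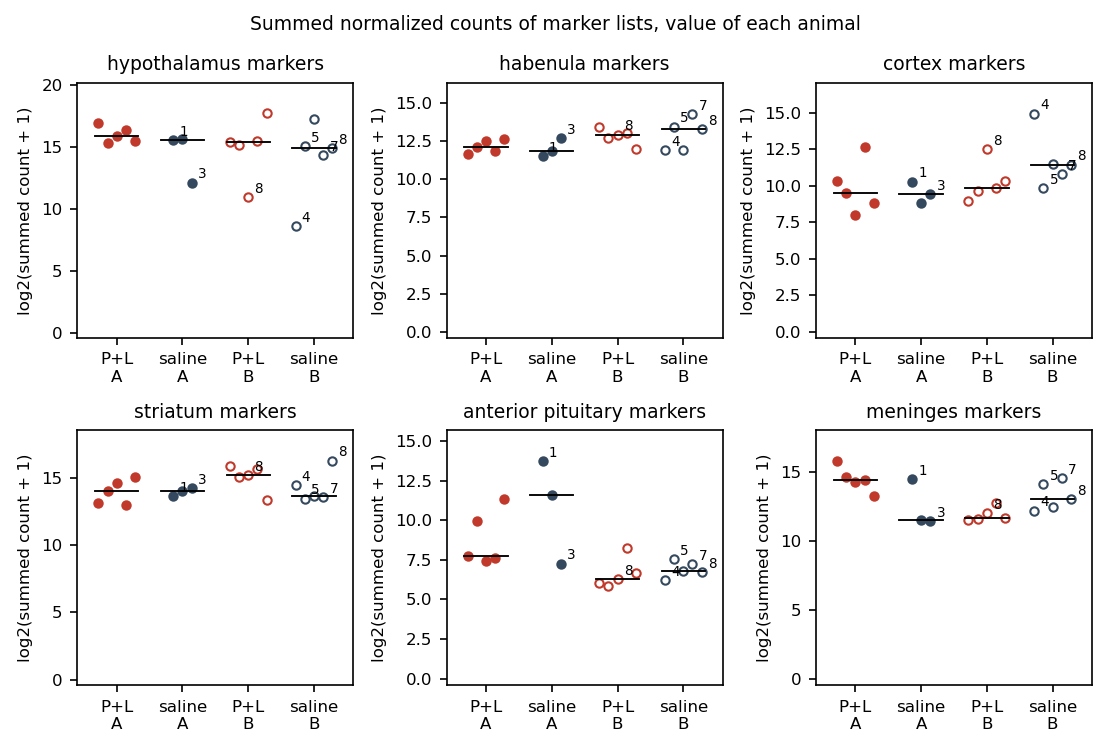
Summed normalized counts of 6 marker lists in each animal, as log2(sum + 1) on the vertical axis, for PYY3-36 + liraglutide (P+L, red) and saline (dark blue) in batch A (filled) and batch B (open). Bars are medians of the log2 values, and numbers name single animals. Saline animal 4 is lowest for hypothalamus and highest for cortex, and saline animals 5 and 7 lie above the other batch B saline animals for meninges.

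Only 1 gene passed the study's thresholds for regulation in edgeR's test when the combination was compared with saline over both batches. These thresholds were an adjusted p under 0.05 and a log2 fold change beyond 1 in either direction. The study applied them to DESeq2 results, and DESeq2's own test gave more genes here, as described in the last section. The 1 gene in edgeR was Gpr151, an orphan G protein-coupled receptor known as a marker of habenular neurons. It lies at chromosome 18, 36892403 to 36893797 of Rnor_6.0, and was lower in the combination-treated animals. It was 1 of 21871 genes tested, or 0.00457%. Before the adjustment for the number of genes, 188 genes (0.860%) had p under 0.05 in edgeR's quasi-likelihood test with the combination higher, and 366 genes (1.67%) with the combination lower, 2.53% in all. No gene separated the 10 combination-treated animals from the 8 saline-treated animals without overlap, in either direction.

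In the combination-treated animals of batch A, Gpr151 was at 0, 3.14, 0.911, 0 and 0.915 normalized counts, and in those of batch B at 0, 3.24, 1.15, 0 and 7.57. Saline animals of batch A had 2.51, 1.71 and 3.90, and those of batch B had 0, 1193, 8.96, 2431 and 2.75. The high values belonged to saline animals 5 and 7 alone, and the other 6 controls overlapped with the treated group. Among the 47 libraries outside both groups, none exceeded 27.9. The group means were 1.69 ± 2.40 (SD, n = 10) and 456 ± 900 (SD, n = 8). The log2 fold change was -7.73 (SE 1.28, edgeR adjusted p = 0.00266) over both batches, -1.30 (SE 1.89) in batch A and -8.28 (SE 1.46) in batch B. Without saline animals 5 and 7 Gpr151 was at -0.995 (edgeR adjusted p = 1), and no gene passed. Leaving out saline animal 7 alone gave -6.43 for Gpr151, with an edgeR adjusted p of 0.0588.

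The medial habenula is a small epithalamic nucleus next to the dorsal thalamus and lies outside the hypothalamus. Its neurons are known for POU4F1 (BRN3A), a POU-homeodomain transcription factor, and for nicotinic receptors built from the α3 and β4 subunits, which Chrna3 and Chrnb4 encode side by side. Of 12 habenula markers tested, 7 had p under 0.05 with the combination lower and 0 with it higher, against 1.67% and 0.860% of all genes. The median over the list was -1.67 with the batches together, 0.25 in batch A alone and -2.43 in batch B alone, while the median of all genes, batches together, was -0.016. Gpr151 was the 1 marker that passed after adjustment. Without saline animals 5 and 7, 0 of the 12 had p under 0.05 with the combination lower and 1 with it higher, and the list's median was 0.37.

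Pou4f1 was at 353 and 810 normalized counts in saline animals 5 and 7, at most 3.35 in the other 6 controls and at most 12.8 in the combination-treated animals. Chrna3 reached 716 and 1212 in the same controls, against 16.8 to 33 in the other controls and 16.4 to 60.3 under the combination. Chrnb4 stood at 186 and 241 there, against at most 21.4 in the other controls and at most 24.3 under the combination. In these 3 genes, as in Gpr151, saline animals 5 and 7 were the highest of the 18, and without them the estimate for Pou4f1 was 1.09, of the other sign. Htr5b, a serotonin receptor gene, was at 164 and 299 in these 2 animals and at most 29.7 in the other controls. Irx2, a homeodomain transcription factor gene, was at 271 and 616 there and at most 54.6 in the other controls. Nwd2 was at 2336 and 4235, and at 1694 in saline animal 4, against 381 to 614 in the other 5 controls and 302 to 762 under the combination. The other 5 markers of the list had p above 0.05, with log2 fold changes over both batches of 0.25 for Chat (choline acetyltransferase), 0.20 for Slc5a7 (the choline transporter), 0.19 for Tac1 (the substance P precursor), -0.26 for Lrrc55 and 0.55 for Chrnb3, another nicotinic subunit gene. Lrrc55 was again highest in saline animals 5 and 7 (3109 in animal 7 and 2153 in animal 5, against at most 1321 elsewhere). Chrnb3 was at 92.8, 87.9, 55.6, 176 and 71.4 in the combination-treated animals of batch A. It was at 52.7 and 72.9 in saline animals 5 and 7, at most 27.6 in the other controls and at most 8.07 in the treated animals of batch B. High values of Chrnb3 were thus found in both groups, and its estimates were 3.03 in batch A and -3.23 in batch B.

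Promoter sequences are shown for Pou4f1 and the nicotinic subunit genes because their counts were high together in saline animals 5 and 7. They run from 250 bases before to 50 after the annotated start, 5′ to 3′ on the strand of the gene, and come from RefSeq on GRCr8, a later build than the counts, where 3 of the 4 genes looked up (these and Gpr151) had an entry. Capitals mark the GC box GGGCGG, which Sp1-family factors bind, and the homeodomain core TAATTA, searched on both strands.
Pou4f1, chr15:87674594-87674893, minus strand: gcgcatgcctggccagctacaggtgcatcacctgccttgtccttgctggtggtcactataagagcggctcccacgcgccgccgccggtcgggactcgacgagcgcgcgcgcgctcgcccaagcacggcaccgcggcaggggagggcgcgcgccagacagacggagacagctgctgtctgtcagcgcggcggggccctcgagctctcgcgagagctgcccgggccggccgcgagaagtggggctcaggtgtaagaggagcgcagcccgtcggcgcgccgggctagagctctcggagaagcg
Chrna3, chr8:64311202-64311501, minus strand: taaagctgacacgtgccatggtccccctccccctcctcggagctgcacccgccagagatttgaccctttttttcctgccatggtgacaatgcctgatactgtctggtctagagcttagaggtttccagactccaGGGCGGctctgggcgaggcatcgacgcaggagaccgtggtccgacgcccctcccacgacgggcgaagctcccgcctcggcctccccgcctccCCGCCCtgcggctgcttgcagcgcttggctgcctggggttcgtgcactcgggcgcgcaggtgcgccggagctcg
Chrnb4, chr8:64333060-64333359, minus strand: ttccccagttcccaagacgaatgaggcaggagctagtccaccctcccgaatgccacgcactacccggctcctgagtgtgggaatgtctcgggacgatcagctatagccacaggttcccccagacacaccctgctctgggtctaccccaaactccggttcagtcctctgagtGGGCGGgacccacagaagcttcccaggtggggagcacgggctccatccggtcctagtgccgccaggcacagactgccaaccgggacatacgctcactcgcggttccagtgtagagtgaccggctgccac
The GC box occurred at 2 places in the Chrna3 window and at 1 in the Chrnb4 window, and no letters matched in the Pou4f1 window. Of all 33469 promoters in the table, 33.1% hold this GC box and 5.36% hold TAATTA, which was in none of these 3 windows.

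**Figure D2:**
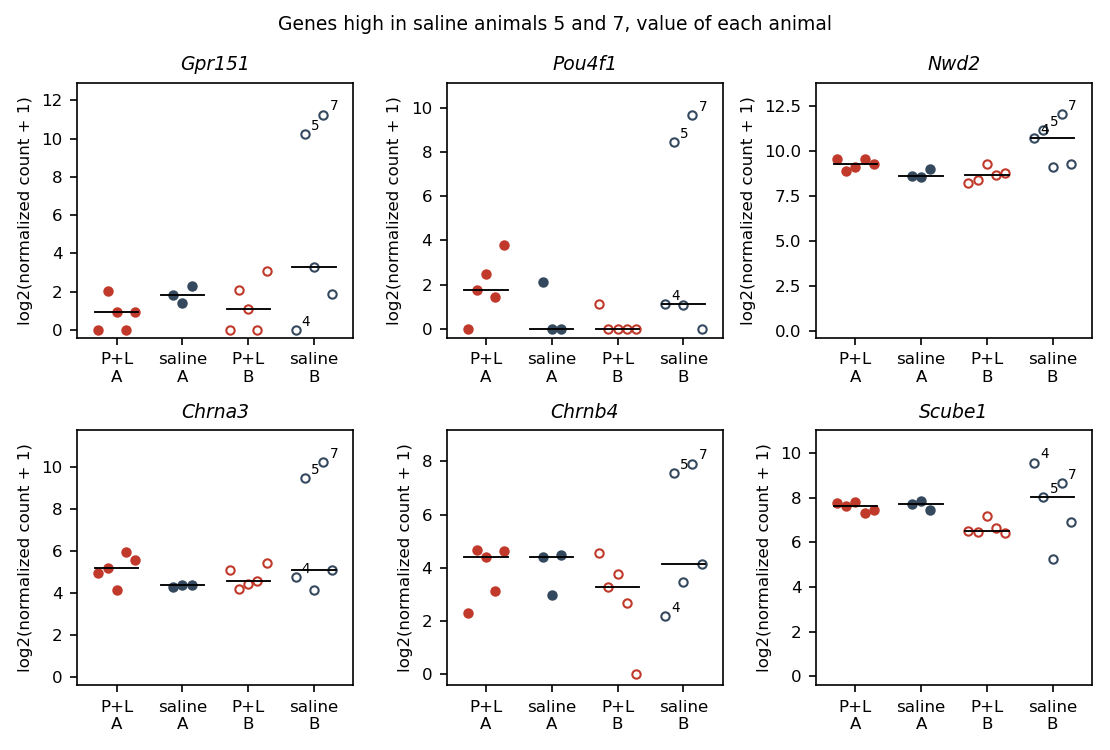
Normalized counts of Gpr151, Pou4f1, Nwd2, Chrna3, Chrnb4 and Scube1 in each animal, as log2(count + 1) on the vertical axis, by treatment and batch (P+L, PYY3-36 + liraglutide). Bars are medians of the log2 values. Saline animals 5 and 7 (numbered) are the highest for Gpr151, Pou4f1, Nwd2, Chrna3 and Chrnb4, and animal 4 is the highest for Scube1.

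Whether the 2 batches gave the same direction was asked for each of the 21871 genes, with separate treatment effects for each batch in 1 model. The sign was the same for 11143 genes, or 50.9%. Across genes, which are not independent replicates, the log2 fold changes of the batches had a Pearson correlation of -0.161 and a Spearman correlation of -0.0599. Without saline animal 1 the Pearson correlation was -0.27, without saline animal 3 it was -0.079 and without combination-treated animal 1 it was -0.095. Of the 5468 genes with the lowest mean level 46.0% had equal signs, and of the 5468 with the highest 55.4%. With the same model, Roux-en-Y gastric bypass against sham operation gave 66.4% equal signs between the batches, from 14 and 11 animals, so the numbers of animals differ between these comparisons.

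Restricting to genes with stronger evidence did not raise the share. Of 159 genes with p under 0.05 in batch A (0.727% of those tested), 70 had the same sign in batch B, or 44.0%. Of 1286 such genes in batch B (5.88%), 550 had the same sign in batch A, or 42.8%. The count for batch B was 1966 without combination-treated animal 10 and 886 without combination-treated animal 7. The 696 genes lower in batch B at p under 0.05 (3.18% of those tested) had 36.9% of signs in common, and the 590 genes higher (2.70%) had 49.7%. Without saline animals 3, 4, 5 and 7 and combination-treated animal 8, the share over all genes was 53.1%. These 5 animals stood apart in the sums of hypothalamus or thalamus markers. Leaving out saline animal 1 gave 44.9%, the lowest of the 18 such fits, and leaving out combination-treated animal 1 gave 54.6%, the highest. Among genes with p under 0.05 in batch A, the share in common was 14.1% without saline animal 1.

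Only 15 genes had p under 0.05 in both batches, and 4 of them had the same sign: LOC288521, LOC103694579 and LOC108350063 were higher with the combination in both, and Arl11 was lower. Arl11, which encodes a small GTPase of the ARF-like family, had log2 fold changes of -0.64 in batch A and -0.60 in batch B. Opposite directions were found for the other 11, among them Rgs18 (2.68 and -3.17), a regulator of G-protein signaling, and Ptpn14 (1.09 and -0.97), a tyrosine phosphatase.

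**Figure D3:**
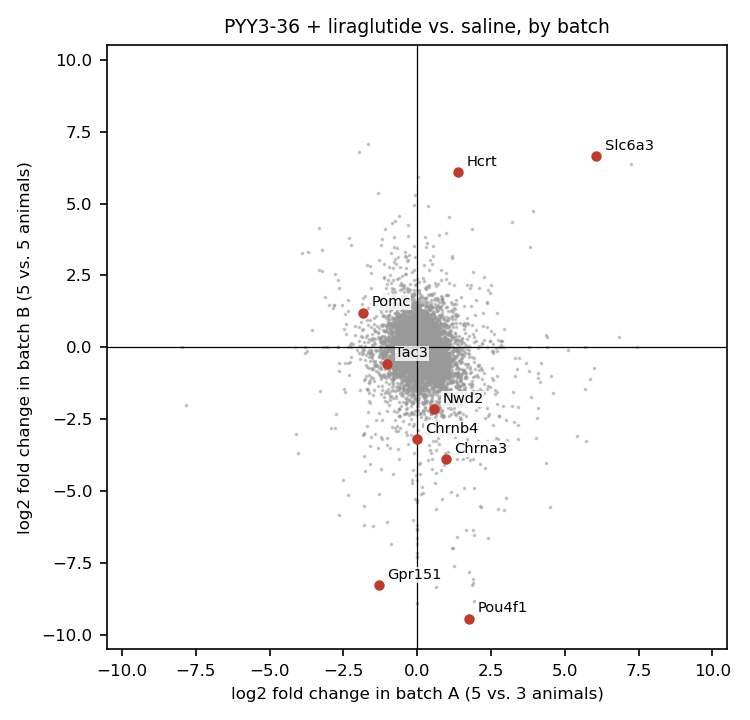
Log2 fold change of PYY3-36 + liraglutide against saline in batch A (horizontal axis) and batch B (vertical axis), 1 grey point for each of 21871 genes, with named genes in red. Points in the lower left and upper right have the same sign in both batches, which held for 50.9% of genes.

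With the spread estimated over all 65 libraries, the contrast within batch A gave no gene past the criteria. Its smallest adjusted p was 1, and 159 genes had an unadjusted p under 0.05. Batch B gave 3 of 21871 genes (0.0137%): Nwd2 at a log2 fold change of -2.15 (SE 0.36, edgeR adjusted p = 0.0041), Gpr151 (edgeR adjusted p = 0.00526) and Pou4f1 at -9.44 (SE 1.78, edgeR adjusted p = 0.0144). Nwd2 and Pou4f1 had estimates of the other sign in batch A, 0.57 and 1.75. All 3 genes belong to the habenula list above. When only the batch B libraries of both groups were fitted, with no filter on low counts, no gene passed. Gpr151 and Pou4f1 were then at an edgeR adjusted p of 0.62.

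The difference between the batches was then tested directly, as the treatment effect in batch B minus that in batch A. Under edgeR, 0 genes had an adjusted p under 0.05 (smallest 0.183, for Nwd2) and 710 genes, or 3.25%, had an unadjusted p under 0.05. The latter count was 440 without saline animal 2 and 992 without saline animal 1, the extremes when 1 animal was left out. Signs were opposite in 684 of the 710, of which 487 were higher in batch A and lower in batch B. Nwd2 was the gene with the smallest p, at a difference of -2.73. Without saline animal 6 its adjusted p was 0.0152, and without saline animal 8 it was 0.0200. Next came Dmrtc1c1, Pou4f1, Rgs18 and Chrna3. Dmrtc1c1, a DMRT-like family gene, was at 0 in each of the 5 combination-treated animals of batch B, and its highest saline values, 22.3 and 30.6, were those of animals 5 and 7. For Rgs18 the highest value was 221, in saline animal 4, against at most 39.3 in any other animal.

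Genes for the receptors and ligands of both drugs came next. Of 16 symbols fixed for this list, 15 matched the table and 12 had enough counts for the test. None of the 12 had p under 0.05, and 5 of the 12 (41.7%) had the same sign in both batches, against 50.9% of all genes. The preproglucagon gene Gcg, the source of GLP-1, was at 0 in 9 of the 10 combination-treated animals and at most 4.13 in the controls, and Ppy was at 0 in all 18 animals.

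Glp1r, the receptor for liraglutide, had a median of 88.6 normalized counts under the combination (range 50.5 to 124) and 56.5 under saline (11.9 to 239). In batch A its values were 97.6, 101, 89.3, 66.4 and 124 under the combination and 239, 235 and 68.2 under saline. In batch B they were 87.9, 96.3, 76.1, 59.3 and 50.5 under the combination and 11.9, 39.8, 98.6, 44.7 and 19.3 under saline. The groups overlapped in both batches, and the controls were spread more widely than the treated animals. The highest values were 239 and 235 in saline animals 1 and 2, and 124 and 101 in combination-treated animals 5 and 2. The same animals were highest for Pomc and anterior pituitary markers, as described below, and the part of this in the Glp1r values was not tested. For Glp1r the log2 fold change was -0.13 (95% interval -1.14 to 0.88), with -0.92 in batch A and 0.78 in batch B.

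Npy2r, the Y2 receptor gene and the target of PYY3-36, had a median of 326 under the combination (232 to 415) and 239 under saline (153 to 543). In batch B the combination-treated animals had 291, 415, 397, 314 and 288, and the saline animals 212, 267, 195, 198 and 153, without overlap. Such separation upward in batch B was seen in 112 genes, or 0.512% of those tested. In batch A the values were 258, 410, 390, 232 and 339 under the combination and 427, 543 and 375 under saline, with overlap. In all, 2.30% of genes separated in batch A, in one direction or the other, and 1.11% did so in batch B. For Npy2r the log2 fold change was 0.18 (95% interval -0.46 to 0.83) over both batches, -0.46 in batch A and 0.73 in batch B, and the difference between batches had p = 0.062 in edgeR (adjusted p = 1).

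The other Y receptors gave narrower intervals. Npy1r, the Y1 receptor gene, had a log2 fold change of 0.05 (95% interval -0.36 to 0.46), and Npy5r, the Y5 receptor gene, of 0.01 (-0.47 to 0.49). Both intervals lie inside a 2-fold change in either direction, that is, a log2 fold change within 1, which held for 16479 genes or 75.3% of all tested. Npy itself was at -0.51 (-1.32 to 0.30), with -0.56 in batch A and -0.46 in batch B. Gipr, the receptor gene for the incretin GIP, was at -0.28 (-0.74 to 0.17), again with the same sign in both batches. Dpp4, the peptidase that cleaves both native hormones, was at 0.14 (-1.28 to 1.55), with 163 in combination-treated animal 1 against at most 81.2 elsewhere. Mme (neprilysin), another peptidase that degrades neuropeptides, was at 0.41 (-0.40 to 1.21). The remaining genes of the list had mean levels under 16 in both groups and wide intervals: Pyy itself at 0.37 (-0.90 to 1.64), Npy4r at -0.08 (-1.30 to 1.14), Gcgr at 0.18 (-1.29 to 1.65) and Glp2r at -0.14 (-1.66 to 1.37).

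**Figure D4:**
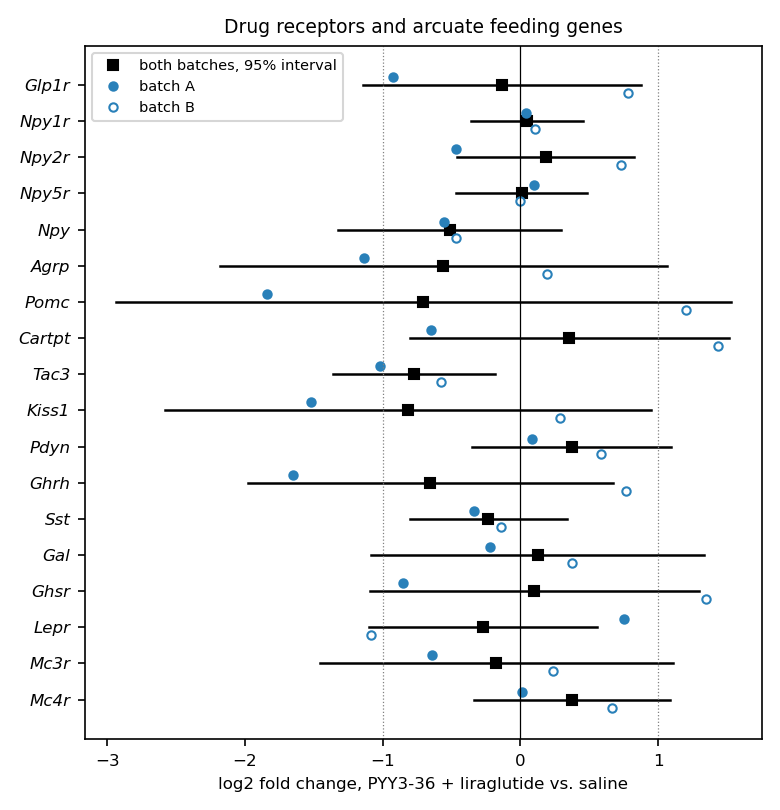
Log2 fold changes of PYY3-36 + liraglutide against saline for drug receptors and arcuate feeding genes. Squares with lines give the estimate over both batches with its 95% interval, and circles the estimates in batch A (filled) and batch B (open). The dotted lines mark -1 and 1, and the interval for Tac3 alone leaves out 0.

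Arcuate feeding genes showed no gene past the criteria. Of 16 tested, 1 had p under 0.05, Tac3, with the combination lower, against 1.67% of all genes. The sign was the same in both batches for 6 of the 16, against 50.9% of all genes. The median over the list was -0.18 with the batches together, against -0.60 in batch A and 0.24 in batch B. Tac3 encodes neurokinin B, which arcuate neurons make together with kisspeptin and dynorphin. In batch A it was at 216, 423, 598, 420 and 490 under the combination and at 372, 568 and 1667 under saline. In batch B it was at 862, 1099, 750, 873 and 1316 under the combination and at 1076, 1560, 1008, 1749 and 1896 under saline. In batch A, saline animal 3 (1667) lay above all treated animals, while saline animals 1 and 2 (372 and 568) lay among them. In batch B the treated animals lay mostly lower, with overlap. The log2 fold change of Tac3 was -0.77 (95% interval -1.36 to -0.18, edgeR p = 0.011, adjusted p = 0.99981). It was -0.498 without saline animal 3 alone, and -0.34 without the 5 animals that stood apart.

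Pomc and Agrp varied widely between animals of batch A. Pomc, the melanocortin precursor, was at 6926, 6067 and 100 in the saline animals of batch A and at 109, 2433, 353, 73.4 and 3161 under the combination. In batch B it ran from 57.1 to 246 under saline and from 65.7 to 897 under the combination. Agrp, the melanocortin antagonist, was at 228, 277 and 14.6 in the saline animals of batch A; under the combination it was at 149 and 189 in animals 2 and 5 and at 12.2 to 25.2 in the other 3. Saline animals 1 and 2 and combination-treated animals 2 and 5, all of batch A, had the 4 highest values of Pomc, Agrp, Kiss1 and Ghrh among the 18 animals. The same 4 animals had the highest sums of anterior pituitary markers, 13570, 3125, 1006 and 2564, against at most 307 in the others; the part of pituitary tissue in these values was not tested. The log2 fold changes were -0.70 for Pomc (95% interval -2.94 to 1.53), -0.56 for Agrp (-2.18 to 1.06), -0.81 for Kiss1 (-2.58 to 0.95) and -0.65 for Ghrh (-1.98 to 0.67). Each of the 4 was negative in batch A and positive in batch B.

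Cartpt, the CART precursor, was at 0.36 (95% interval -0.80 to 1.52), with -0.65 in batch A and 1.44 in batch B. Ghsr, the ghrelin receptor gene, was at 0.10 (-1.09 to 1.30), with -0.85 and 1.35. Lepr, the leptin receptor gene, was at -0.27 (-1.10 to 0.56), with 0.75 in batch A and -1.08 in batch B. Its highest value, 486, was in combination-treated animal 1, which also had the highest meningeal marker sum, 59271. Sst (somatostatin) was at -0.23 (-0.80 to 0.34), Pdyn (prodynorphin) at 0.37 (-0.35 to 1.09) and Gal (galanin) at 0.13 (-1.08 to 1.34). The prohormone-processing genes were closer to 0 and more precise: Pcsk1 at 0.11 (-0.46 to 0.68), Pcsk2 at 0.11 (-0.31 to 0.54) and Cpe at -0.14 (-0.38 to 0.11). For Prlr, the prolactin receptor gene, the estimate was 0.03 (-0.99 to 1.04).

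Melanocortin receptors and their accessory proteins, 5 of 6 with enough counts, included 0 genes with p under 0.05 and 2 of 5 with equal signs in both batches. Mc4r, through which melanocortins lower food intake, was at 0.38 (95% interval -0.33 to 1.09), with a median of 182 normalized counts under the combination and 105 under saline. Mc3r was at -0.18 (-1.46 to 1.11). Mrap2, an accessory protein of these receptors, was at 0.14 (-0.36 to 0.63). Mc5r and Mrap were low in both groups, with at most 12.9 and 19.3 normalized counts in any animal, and Mc1r did not enter the test.

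**Figure D5:**
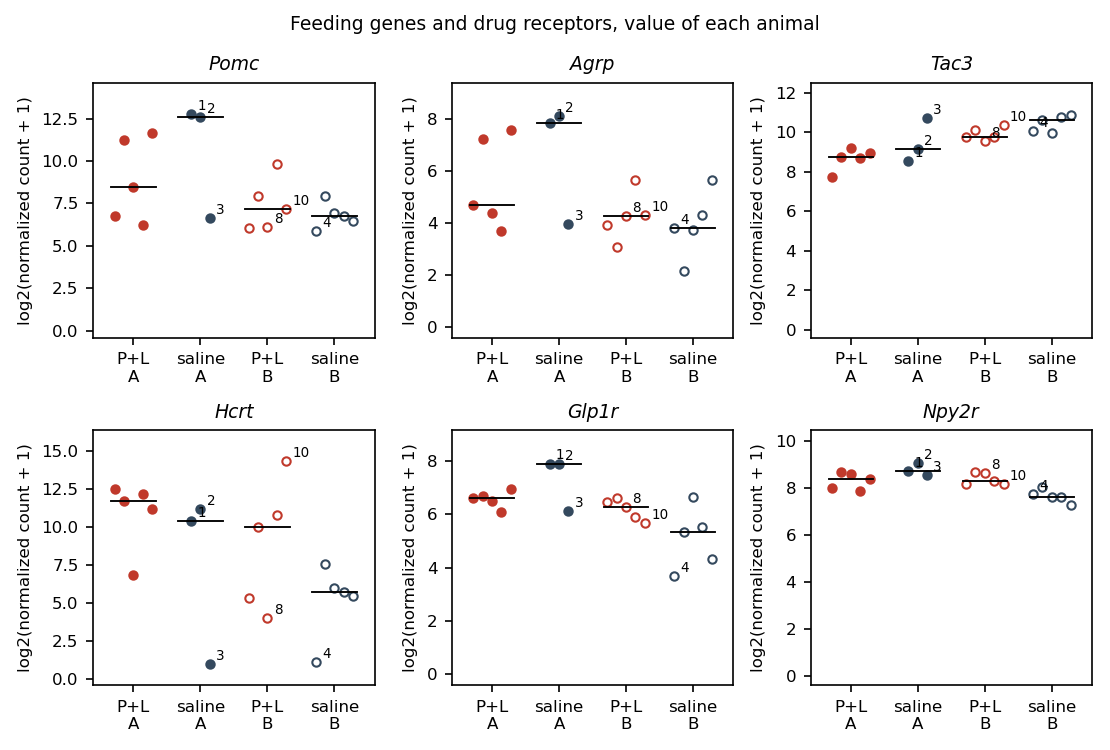
Normalized counts of Pomc, Agrp, Tac3, Hcrt, Glp1r and Npy2r in each animal, as log2(count + 1) on the vertical axis, by treatment and batch (P+L, PYY3-36 + liraglutide). Bars are medians of the log2 values, and numbers name animals 1 to 4 of saline and 8 and 10 of the combination. For Npy2r in batch B, the treated animals (288 to 415) lie above the controls (153 to 267), while in batch A they overlap.

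In the lateral hypothalamus, Hcrt (orexin) and Pmch (melanin-concentrating hormone) mark neuron classes that promote arousal and feeding. Of 10 genes on this list, 2 had p under 0.05 with the combination higher (Hcrt and Pmch) and 1 lower (Lhx9), against 0.860% and 1.67% of all genes, and without the 5 animals that stood apart none of the 10 did. Hcrt was at 5883, 3345, 114, 4581 and 2329 normalized counts in the combination-treated animals of batch A, against 1380, 2349 and 0.975 under saline. In batch B it was at 38.7, 1029, 15.0, 1752 and 21145 under the combination, against 1.19, 186, 62.7, 52.9 and 42.7 under saline. Its values spanned from 0.975 to 21145 over the 18 animals, and the groups overlapped in both batches. The log2 fold change was 3.48 (95% interval 0.82 to 6.15, edgeR p = 0.0113, adjusted p = 0.99981), with 1.38 in batch A and 6.09 in batch B, and 2.57 without the 5 animals that stood apart. Without combination-treated animal 10 alone Hcrt was at 2.17. Lhx9, a LIM-homeodomain gene, was at 763 and 1132 in saline animals 5 and 7 and at most 319 elsewhere. Pmch was at 2.81 (0.28 to 5.33). It was at 165821 in combination-treated animal 10, the animal with the highest hypothalamus marker sum, and at 84.8 and 48.7 in saline animals 3 and 4, which had low sums; Hcrt and Pmch are themselves on that marker list.

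Paraventricular and supraoptic genes gave 0 of 13 with p under 0.05, and 2 of 13 had equal signs in both batches. Oxt (oxytocin) was at -0.02 (SE 1.06), with 1.37 in batch A and -0.98 in batch B. Avp (vasopressin) was at 0.23 (-2.06 to 2.52), with 1.65 and -0.91. Crh, the corticotropin-releasing hormone gene, had the smallest p of this list and was at 0.41 (SE 0.38), positive in both batches. Ventromedial and dorsomedial genes gave 0 of 11 with p under 0.05, with Cck (cholecystokinin) at -1.24 (-2.82 to 0.34), of opposite sign in the batches.

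Signaling genes downstream of leptin, insulin and the GLP-1 receptor had narrower intervals than Pomc, Agrp and Hcrt in most cases. Of 21 leptin and insulin signaling genes, 0 had p under 0.05, and for 19 the 95% interval lay within a log2 fold change of 1 in either direction. Stat5b had the smallest p, at 0.41 (-0.03 to 0.85), Stat3 was at -0.04 (-0.38 to 0.29), and Socs3, a feedback inhibitor induced by leptin, was at -0.57 (-1.26 to 0.13). AMPK and energy-sensing genes gave 0 of 15, with 13 intervals within 1 and 12 equal signs, and Stk11 (the upstream kinase LKB1) was at -0.11 (-0.24 to 0.03). In the cAMP pathway, through which the GLP-1 receptor signals, 18 of 20 intervals lay within 1. Of these 20 genes, 1 had p under 0.05 with the combination higher, against 0.860% of all genes. This was Adcy3, an adenylyl cyclase gene, at 0.27 (0.01 to 0.54, edgeR p = 0.0443, adjusted p = 0.99981).

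Immediate early genes, which report recent neuronal activity, gave 2 of 18 with p under 0.05, Fos and Nr4a2, both with the combination lower, against 1.67% of all genes. Over both batches the median of this list was -0.56, from 0.18 in batch A and -0.77 in batch B. Only 3 of the 18 had equal signs. Without saline animals 3 and 4 and combination-treated animal 8, 0 of the 18 had p under 0.05 and the median was -0.14. Without saline animals 5 and 7 instead, 2 of the 18 had p under 0.05 with the combination lower, and the median was -0.69. Without all 5 of these animals, 0 of the 18 had p under 0.05 and the median was -0.21. Fos was at 454 normalized counts on average under the combination and 729 under saline, with 1987 in saline animal 4 against at most 914 in any other animal. Nr4a2 was at -1.13 (95% interval -2.04 to -0.22), and its highest values were 1163, 767 and 552 in saline animals 4, 7 and 5. Saline animal 4 had a sum of 36547 over this list, against at most 13874 in the other 17 animals, and the part of its cortical marker level in these values was not tested.

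Gene groups with a housekeeping role stayed within narrow bounds. All 20 ribosomal protein genes had a 95% interval within 1 and were negative in both batches, with a median log2 fold change of -0.17, and none had p under 0.05. Rplp0 was at -0.17 (-0.37 to 0.04). All 32 oxidative phosphorylation genes that were tested had an interval within 1, with a median of -0.10 and 26 equal signs, and Uqcrfs1, the Rieske protein of complex III, had the smallest p at -0.15 (-0.36 to 0.06). Tanycyte genes gave 0 of 10 with p under 0.05, with Dio2, the deiodinase that activates thyroid hormone, at -0.53 (-1.19 to 0.12). Of 16 gliosis and inflammation genes, 2 had p under 0.05, both with the combination lower, against 1.67% of all genes. One was Trem2, a microglial receptor gene, at -0.40, with -0.41 in batch A and -0.39 in batch B. Serpina3n, the other, is made by reactive astrocytes and liver. It was at 0 in the 5 combination-treated animals of batch A and at most 9.73 in those of batch B, and at 81.2 and 74.3 in saline animals 1 and 8, with at most 10.5 in the other 6 controls. Apoc3, an apolipoprotein gene of the liver, was at 87.9 and 162 in the same 2 controls and at most 31.6 elsewhere, and Ambp, another liver gene, was at 118 in saline animal 8, at 0 in saline animal 1 and at most 2.34 elsewhere. These 2 genes were looked up after values were seen, and their part in the Serpina3n values was not tested.

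The 10 genes with the smallest p among those higher with the combination in both batches are described next. None had an adjusted p under 0.05. Slc6a3, the dopamine transporter gene of dopamine neurons, had the highest values of the 10. It was at 105, 46.3, 8.20, 2820 and 910 in the combination-treated animals of batch A and between 1.17 and 30.8 in those of batch B. In saline animals it was at 18.4, 15.4 and 0 in batch A and at 0 in all 5 of batch B. The log2 fold change was 5.99 (SE 1.79) over both batches and 6.65 (SE 4.86) in batch B. The groups did not overlap in batch B, where 112 genes or 0.512% separated upward. That separation rests on a few reads in combination-treated animals 6 and 8, at 1.17 and 2.31 normalized counts. LOC108350063, a pseudogene whose reads could belong to a related copy, was at 47.1, 39.2 and 41.6 in combination-treated animals 2, 3 and 9, at most 4.61 in the other 7 and at 0 in all 8 controls. Its treated mean was 34.9 times a limit of 3 counts over the control group, which leaves out the spread between animals. Il17c, an epithelial cytokine gene, was also at 0 in all controls, with a treated mean 6.28 times the same limit. For Pnmt, which makes adrenaline, the treated mean was 3.88 times the limit, with a highest value of 9.25. The counts of Il17c and Pnmt, all under 10, amount to a few reads per library. The fitted intervals of the log2 fold change began at 2.55 for LOC108350063, 1.75 for Il17c and 1.29 for Pnmt. Differences smaller than these ratios were therefore not excluded.

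Estimates with smaller errors were found among genes without a symbol of their own and for Dand5. LOC103694579, a long noncoding RNA, was at 26.7 to 36.8 in the combination-treated animals and at 14.2 to 34.0 in the controls, where saline animal 5 alone exceeded 25.3. Its log2 fold change was 0.55 (SE 0.18), with 0.61 in batch A and 0.56 in batch B. LOC108349102, a long noncoding RNA on chromosome 1, was at 38.4 to 87.9 and at 9.51 to 62.4, and did not overlap in batch B (log2 fold change 0.80, SE 0.23). LOC108348771, annotated as protein-coding, was at 71.9 to 141 and at 21.1 to 92.2, without overlap in batch A, where 202 genes or 0.924% separated upward (0.70, SE 0.24). Dand5, a secreted antagonist of the Nodal and BMP ligands, was at 4.55 to 18.8 and at 0 to 6.88, without overlap in batch B (1.31, SE 0.46). Upward separation in batch B was seen in 112 genes or 0.512%. LOC288521, annotated as similar to leukosialin (CD43), was at 0 to 20.4 and at 0 to 1.71, and the pseudogene LOC100362164 had a log2 fold change of 1.11 (SE 0.40).

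Among the 10 genes lower with the combination, most of those with the smallest p after Gpr151 had their highest values in a few control animals. Trim54, a muscle RING-finger gene, was at 1832 and 318 in saline animals 4 and 8 and at most 90.5 in the other 16 animals. LOC108349107 was at 383 and 150 in the same 2 animals and at most 85.5 elsewhere. Scube1, a secreted and membrane-bound EGF-domain protein gene, was at 764 in saline animal 4, 406 in animal 7 and 259 in animal 5, against at most 231 in the other 15. Tmprss15 (enteropeptidase) was at 21.2 and 12.9 in saline animals 7 and 5 and at most 2.56 elsewhere. LOC108352125 was at 20.6 in saline animal 8 and at most 10.7 elsewhere, and LOC102552563 was at 10.6 in saline animal 7 and at most 5.86 elsewhere. Neither overlapped between the groups in batch B, where 131 genes or 0.599% separated downward. Chrnb4 and Serpina3n, described above, and Pa2g4 were the remaining members of the 10.

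Pa2g4 differed from these. It encodes EBP1, a regulator of growth and ribosome assembly, and lies on chromosome 7, 2979587 to 2987055 of Rnor_6.0. Its values were 1884, 1972, 1900, 1994 and 2096 under the combination and 2348, 2200 and 2204 under saline in batch A, without overlap. In batch B they were 2133, 2215, 1926, 2145 and 2123 under the combination and 2278, 2199, 2448, 2142 and 2428 under saline, with overlap. The means were 2039 ± 117 (SD, n = 10) and 2281 ± 115 (SD, n = 8). The log2 fold change was -0.16 (95% interval -0.26 to -0.06), a small difference that did not pass after adjustment (edgeR p = 0.00205, adjusted p = 0.99981). Separation downward in batch A was seen in 300 genes, or 1.37% of those tested.

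Marker lists of other regions and cell types differed in how far the batches gave equal signs. Striatal markers had estimates above 0 over both batches for 9 of 9 genes, with medians of 0.39 in batch A and 0.94 in batch B and 8 of 9 equal signs, and 1 of the 9 had p under 0.05 (Pde10a, a striatal phosphodiesterase gene, at 1.38), against 0.860% of all genes on that side. Of 7 thalamic markers, 2 had p under 0.05 with the combination lower (Lef1 and Prkcd, against 1.67% of all genes), and the list's median was -0.66. Without saline animals 5 and 7, 0 of the 7 had p under 0.05, and the median was 0.13. Of the 12 hypothalamic markers, 2 had p under 0.05 with the combination higher (Hcrt and Pmch, described above). The median over meningeal markers was 1.47 in batch A against -1.60 in batch B, and 0 of 10 had equal signs. Cortical markers were at 1.21 and -1.44, with 0 of 7 equal. Of 6 blood markers, 2 had p under 0.05 with the combination higher, both hemoglobin genes (Hba1 and Hbb, whose near-identical copies share reads), against 0.860% of all genes, and the list had a median of 2.28 in batch A and 0.17 in batch B. Oligodendrocyte markers were negative in both batches for 8 of 8 genes, with a median of -0.23, and none had p under 0.05. For astrocytes, microglia and endothelium, all 8 intervals of each list lay within 1, with medians of 0.03, -0.06 and 0.00. Their part in other results was not tested.

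The single drugs, which were given in batch B only, share the saline animals with the combination and so are not independent of it. Gpr151 was at -6.30 (SE 1.48) with liraglutide alone and -8.27 (SE 1.89) with PYY3-36 alone. For Hcrt the values were 3.48 and 2.47, for Slc6a3 6.27 and 8.84, and for Nwd2 -1.87 and -1.32. Drug receptor values were -0.06 and 0.09 for Glp1r and 0.22 and 0.01 for Npy2r, and Tac3 was at -0.58 and -1.30.

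The precision of these estimates differed by gene. The median standard error of the log2 fold change was 0.184 over both batches, 0.280 in batch A and 0.244 in batch B. Of all log2 fold changes, the lower and upper quartiles were -0.130 and 0.102, and 561 genes exceeded 1 in either direction. On counts simulated for this comparison, 200 genes were changed, some 4-fold and some 2-fold. Of the former, 89% passed the criteria, and of the latter, 69% had an adjusted p under 0.05. These shares are over all changed genes in the simulation. They do not describe genes such as Pomc, Agrp and Hcrt, whose standard errors were far above the median of 0.184. How the shares depend on animals that stood apart, or on opposite effects in the batches, was not tested. For Avp the 95% interval was -2.06 to 2.52, which reaches beyond a 4-fold change in both directions, so that a difference of that size was not detectable for this gene.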

How the data were processed

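Expected counts per gene, estimated by the authors with fractional counting of multi-mapping and overlapping reads (featureCounts 1.6.4 after STAR 2.7.2b, per the submitters' processing notes; Rnor_6.0), were deposited for 65 rat hypothalamus libraries. They were rounded to whole numbers here. Libraries of the 2 groups held 20622249 to 35011146 counts.

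Genes were filtered with filterByExpr (minimum count 10, minimum total 15), normalized by TMM and tested with edgeR 4.0.16 quasi-likelihood (robust) over all 65 libraries with group and batch as terms. A model with a mean for each group and batch gave within-batch effects and their difference. Regulated genes had a Benjamini-Hochberg adjusted p under 0.05 and a log2 fold change beyond 1. Printed levels are counts divided by DESeq2 1.42.0 size factors (R 4.3.3).

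Named genes were the regulated genes, the 10 with the smallest p and equal signs in both batches in each direction, the 5 with the smallest p for the difference between batches, and drug receptor, arcuate and melanocortin genes with the gene of smallest p in other lists; Hbb, Hba1, other habenula, marker and list members, Apoc3, Ambp, Arl11 and Ptpn14 were picked after values were seen. Members and lists were chosen with earlier results of these data known. On counts simulated for this comparison over 21690 genes, 6 unchanged genes were called, and 0 with no change simulated. Alternatives were normalization, filter, DESeq2, library choice, batch term, replicate block and left-out animals. Each p-value sets a difference against the spread between animals, estimated over all 65 libraries unless a fit used fewer.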

Additional observations from a re-analysis of the deposited data

Results flagged for a closer look

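Values far from the rest of their group were found for 16 of 131 combinations of gene and group (12.2%). Each was the highest value of its group, with a gap to the next animal that was large for the group's range by Dixon's criterion. The chance share of about 1 in 20 holds for normally distributed values. The values here were counts without a log transform, some near the floor, and some genes were named for a small p. The share of 12.2% therefore cannot be set against it. In the saline group, animal 4 stood apart for Trim54 (1832 normalized counts, next 318), LOC108349107 (383, next 150) and Rgs18 (221, next 32.9), animal 7 for Pou4f1 (810, next 353) and animal 5 for Pyy (16.4, next 7.13). Among combination-treated animals, animal 1 stood apart for Lepr (486, next 257), Dpp4 (163, next 50.2) and Gcgr (60.6, next 21.8), and animal 10 for Hcrt (21145, next 5883) and Gpr151 (7.57, next 3.24). Animal 4 was high for Slc6a3 (2820, next 910), animal 3 for Prlr (98.4, next 48.7) and animal 5 for Pou4f1 (12.8, next 4.55). Il17c in animal 8 (9.23), Pnmt in animal 9 (9.25) and Tmprss15 in animal 5 (0.915) amount to a few reads.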

How the results depend on the processing

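The 1 regulated gene stayed 1 with DESeq2 size factors in edgeR, with no filter on low counts, and without saline animals 3 and 4 and combination-treated animal 8. DESeq2's own test, run here without the fold-change shrinkage that the study used, gave 14 genes, among them Gpr151, Nwd2, Pou4f1, Chrna3 and Slc6a3. Others of the 14 had extreme log2 fold changes, such as Hoxb5 at -30, Csn1s1 at -21.7 and Hoxd4 at 13.8. Leaving out the batch term gave 2, Gpr151 and Pou4f1. With the 18 libraries alone (507 genes higher and 540 lower at an unadjusted p under 0.05), batch A alone (353 and 195 such genes) and batch B alone (795 and 824), edgeR gave 0, but the filter on low counts removed Gpr151 from these 3 fits, so that it was not tested there. Repeated with no filter, the 3 fits again gave 0 (764 and 963, 510 and 351, and 1011 and 1173 genes at p under 0.05), with Gpr151 at -7.26 (edgeR adjusted p = 0.772), -1.31 (0.985) and -8.31 (0.62). The share of genes with an interval within 1 was 48.7% in the last of these, against 75.3%. edgeR also gave 0 without saline animals 5 and 7 (134 and 295) or all 5 animals that stood apart (130 and 288). Leaving out 1 animal at a time gave 0 to 1 regulated genes, with 0 only without saline animal 7, and 0 to 1 genes that differed between batches (Nwd2 without saline animal 6 or 8). Genes higher at p under 0.05 numbered 436 without combination-treated animal 10, 321 without saline animal 2 and 338 without saline animal 3, against 188. With no filter, 632 genes were higher and 862 lower at p under 0.05, among more genes tested; DESeq2 gave 288 higher. The share of equal signs ran from 44.9% to 54.6% over the fits without 1 animal. With the replicate block, edgeR gave 0 regulated genes (471 higher and 464 lower at p under 0.05) and -5.4 for Gpr151; 5 of the 8 same-numbered pairs had a correlation of deviations over 0.1 and 3 did not (-0.0435 to 0.171 in all), 2 pairs lie in different batches, and 3 of 16 animals correlated best with their own number, so the numbers were not taken as pairs. Of 67 named genes, 32 changed sign in at least 1 of 33 alternatives, and Gpr151 kept its sign in the 29 in which it had a value. Where it is not stated above, the cause was not tested. The alternatives without several animals and the single-batch or 18-library fits with no filter were chosen after seeing the data. With 3 controls in batch A, its estimates had the larger standard errors, median 0.280.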
